A study of Homo sapiens with 3 samples.

Results

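The RBM genes encode RNA-binding proteins named for an RNA-binding motif, most of which act in splicing, RNA turnover or ribosome assembly. Their transcripts were examined for contact sites of MATR3 in HAP1 cells. Members were all genes whose name in the cluster tables starts with RBM, without a hyphen, and whose cluster carried a HAVANA or ENSEMBL annotation. By this rule 35 of 9754 genes with a cluster in any library were members. Their clusters numbered 364 of 79793 in the first wild-type library (WT replicate 1), 105 of 24982 in the second (WT replicate 2) and 5 of 673 in the MATR3 knockout (KO).

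PAR-CLIP was used, in which a photoreactive nucleoside in RNA is crosslinked to protein by UV light and is then read as C in place of T. A cluster is a stretch of overlapping reads with such T-to-C changes. HAP1 is a near-haploid human line derived from the leukaemia line KBM-7; the labels give 2 WT libraries and 1 library of a MATR3 KO line, grown in the same medium and both bought from the same supplier. The immunoprecipitation used anti-FLAG beads in all 3 libraries, and no label records a tag on MATR3, so the KO library shows what is recovered without the MATR3 gene and not which antibody target was present. Cluster numbers do not measure RNA levels, and more RNA cannot be told apart from more binding per RNA.

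MATR3 is a nuclear matrix protein with RNA recognition motifs and zinc fingers, known to bind pyrimidine-rich intronic RNA and to affect splicing beside PTB proteins. Many RBM proteins are splicing regulators themselves, and the transcripts of such proteins are often controlled by alternative splicing or by retained introns. The genes described below thus encode, for the most part, other regulators of RNA.

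The deepest sites found in both WT libraries are shown first, because the deepest of them recurs in the KO library. They are 8 of the 28 overlapping pairs, picked by depth, and both RBM4 pairs share a WT replicate 1 cluster. Positions are those of the tables, in hg38 per the submitters' processing notes, and sequences are the clusters as deposited, 5′ to 3′ on the transcript strand. Capitals mark the letters ATCTT, a word bound by MATR3 in earlier binding assays, or TTCTT, a frequent pyrimidine word of such clusters. All 8 pairs named here were annotated as intronic.
RBM4, WT replicate 1, plus strand, chr11:66646171-66646282: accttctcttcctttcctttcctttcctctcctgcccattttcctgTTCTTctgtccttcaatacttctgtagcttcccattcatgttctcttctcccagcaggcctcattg
RBM4, WT replicate 2, first of the pair of clusters there, chr11:66646171-66646201: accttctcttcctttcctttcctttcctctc
RBM4, WT replicate 2, the second, chr11:66646217-66646240: TTCTTctgtccttcaatacttctg
RBM4, KO, chr11:66646171-66646204: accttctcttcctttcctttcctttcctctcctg
RBM26, both WT libraries, minus strand, chr13:79400584-79400615: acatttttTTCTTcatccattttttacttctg
RBM33, both WT libraries, plus strand, chr7:155717945-155717977: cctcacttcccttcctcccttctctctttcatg
RBM41, WT replicate 1, minus strand, chrX:107093617-107093697: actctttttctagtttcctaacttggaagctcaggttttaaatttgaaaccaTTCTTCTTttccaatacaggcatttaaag
RBM41, WT replicate 2, chrX:107093664-107093691: tttctagtttcctaacttggaagctcag
RBM14, both WT libraries, plus strand, chr11:66625834-66625869: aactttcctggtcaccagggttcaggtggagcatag
RBM3, WT replicate 2, plus strand, chrX:48577304-48577334: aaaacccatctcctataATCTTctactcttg
RBMS3, both WT libraries, plus strand, chr3:29326124-29326157: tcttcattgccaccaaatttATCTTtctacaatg

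The RBM4, RBM26 and RBM33 sequences are mostly T and C with few G. The RBM14 site differs, with several GG pairs along it. GG also occurs in both RBM41 sequences and in that of RBM4 in WT replicate 1. For each cluster shown, the first 20 bases were found in 0 clusters at any other position of the 3 libraries.

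WT replicate 1 marked 31 members, WT replicate 2 marked 20 and KO marked 4. Of the 35 members, 17 were marked by both WT libraries (48.6%), where 56.7% of all genes with a cluster in any library were. The 95% Wilson interval of the members' share, 33.0 to 64.4%, holds the value of all genes. A further 14 members had WT clusters in replicate 1 only and 3 in replicate 2 only, and RBM22 had a KO cluster alone. Of the 51 protein-coding RBM genes in RefSeq, 16 had no cluster: RBM11, RBM15B, RBM24, RBM27, RBM42, RBM43, RBM44, RBM46, RBMXL2, RBMXL3 and 6 RBMY copies. The genes with a cluster had a median RefSeq length of 28.4 kb and those without 15.9 kb. Because the tables list called clusters only, a gene without one has no upper limit.

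The RBM part of all gene clusters came to 0.456% (95% Wilson interval 0.412 to 0.505%) for WT replicate 1. For WT replicate 2 it came to 0.420% (0.347 to 0.509%). The mean was 0.438 ± 0.0254% (SD, n = 2). By reads the share was 0.530% (13104 reads) in replicate 1 and 0.513% (7383 reads) in replicate 2, a mean of 0.521 ± 0.0121% (SD, n = 2). The KO share was 0.743% of clusters (0.318 to 1.73%), an interval that holds both WT values. By KO reads it was 1.57%, from 2846 reads. These intervals cover counting error only.

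**Figure D1:**
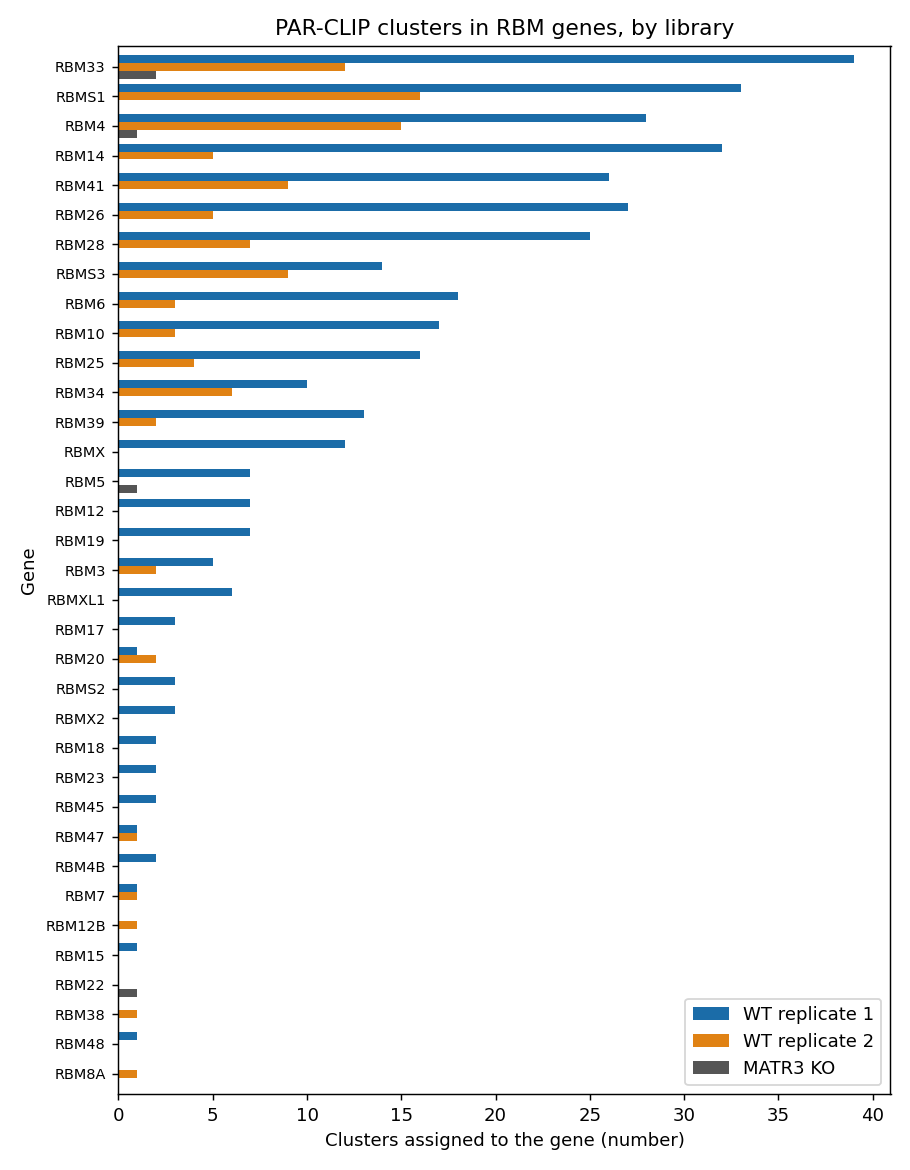
Number of clusters (x axis) in each of the 35 RBM genes (y axis), with a bar per library. RBM33 had 39 clusters in WT replicate 1 and 12 in WT replicate 2; RBM33, RBM4, RBM5 and RBM22 had KO bars.

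Gene by gene the WT libraries ranked the members alike but not closely. Over the 34 members with a WT cluster, Spearman's rho of the cluster numbers was 0.650, and it was 0.802 over the 17 members found in both. For all 9706 genes with a WT cluster it was 0.705. These are correlations across genes, which are not replicates. Over the 34 members, cluster number against RefSeq length gave a rho of 0.496 in replicate 1 and 0.492 in replicate 2. No correlation was adjusted for gene length, and its part in them was not tested. WT replicate 2 held 23.8% of all WT gene clusters. In 0 of 34 members did the exact (Clopper-Pearson) interval of that part leave out 23.8%, against 1.84% of all genes with a WT cluster. Members with few clusters can hardly depart, so for them the interval says little. Members with more clusters did not depart either: RBM33, with 51 WT clusters, had an interval of 12.8 to 37.5%. RBMX had 12 clusters in replicate 1 and 0 in replicate 2, and its interval reached up to 26.5%.

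**Figure D2:**
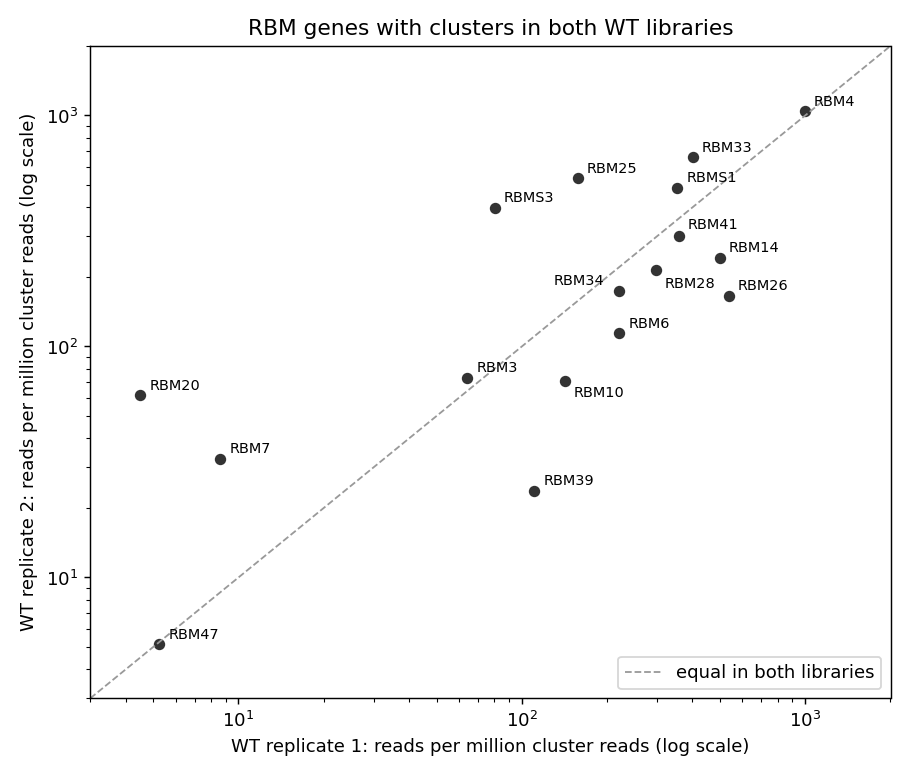
Reads in a gene's clusters per 1000000 reads in all clusters of the library (RPM), WT replicate 1 (x axis) against WT replicate 2 (y axis), both on log scales, for the 17 RBM genes with clusters in both. RBM4 lay at the top on the line of equality, RBM25 and RBMS3 above it, and RBM26 and RBM39 below it.

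Among the splicing regulators and spliceosome proteins, 16 of the 19 genes listed had a cluster and 7 had clusters in both WT libraries, with 155 clusters in WT replicate 1 and 38 in replicate 2. RBM4, which controls splice site choice and translation, was the member with the most reads. It had 28 clusters with 2657 reads in replicate 1, 15 with 1622 reads in replicate 2, and 1 with 1199 reads in KO. Per 1000000 reads in all clusters of a library (RPM) these were 995.6, 1040.4 and 5349.3, with a WT mean of 1018.0 ± 31.7 (SD, n = 2). The WT libraries thus lay close together, and the KO library, whose clusters held only 224142 reads in all, lay above both. By reads RBM4 ranked 53rd of 9189 genes in replicate 1 and 69th of 6043 in replicate 2.

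A single RBM4 site accounted for much of this. The cluster at chr11:66646171-66646282 held 1342 reads in WT replicate 1, which is 50.5% of the RBM4 reads and 10.2% of all RBM reads there. Its counterpart in WT replicate 2 held 614 reads, or 37.9% of the RBM4 reads. The KO cluster with 1199 reads started at the same base and was 34 nt long, against 112 nt in WT replicate 1 and 31 nt in WT replicate 2. No other RBM cluster was deeper in any of the 3 libraries; among all clusters the site ranked 15th, 33rd and 4th in WT replicate 1, WT replicate 2 and KO. Reads with a T-to-C change made up 38.5% of the site in WT replicate 1, 65.1% in replicate 2 and 16.0% in KO, where the median over RBM clusters was 93.1% in replicate 1 and 96.4% in replicate 2. The converted share of T positions was 3.72%, 4.20% and 1.83%. The reads came from 104, 22 and 47 distinct sequences. So the deepest WT site of the group was also present without MATR3, with the lowest conversion of the 3.

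**Figure D3:**
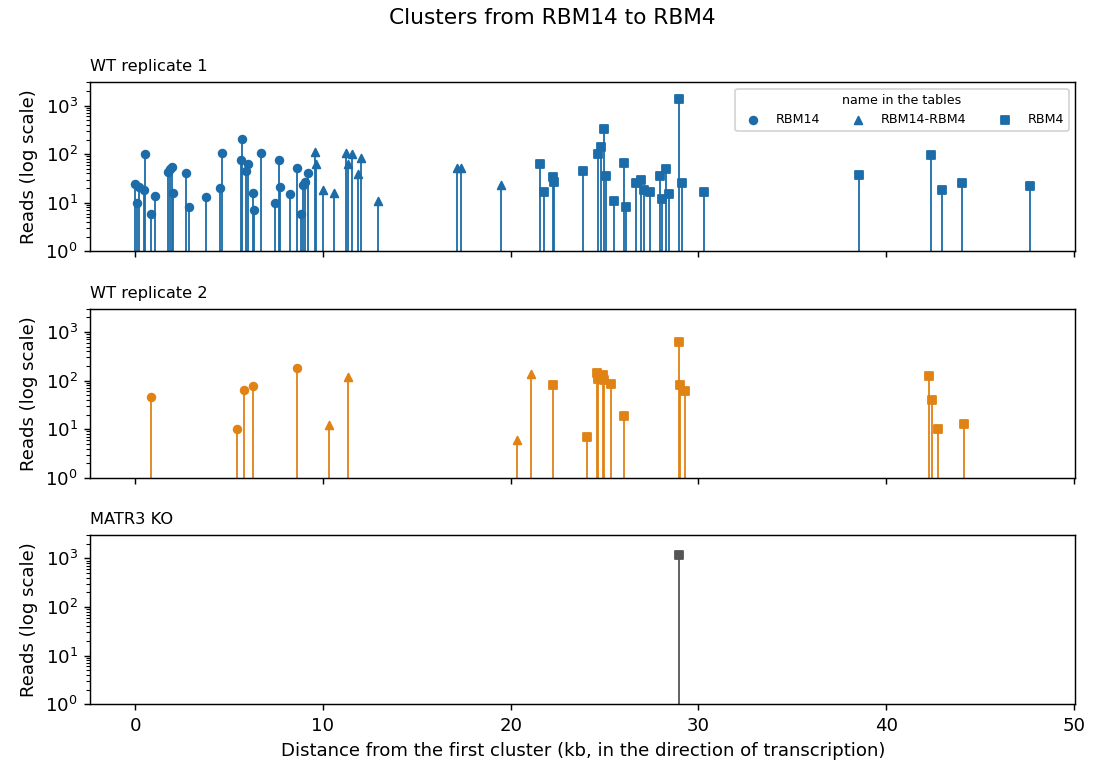
Reads per cluster (y axis, log scale) along the RBM14 to RBM4 stretch (x axis, kb from the first cluster in the direction of transcription), a panel per library and a marker shape per gene name in the tables. WT clusters spread over 47.7 kb, while KO held only the cluster at the deepest RBM4 site, with 1199 reads.

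RBM14 lies just upstream of RBM4 on chromosome 11, and WT clusters were found from the former to the latter, with gaps. The median gap was 202.5 nt in WT replicate 1 and 645 nt in WT replicate 2. The widest gap lay between cluster starts at 30.299 and 38.582 kb from the first cluster in replicate 1. In replicate 2 it lay between 29.278 and 42.299 kb. RBM14, which encodes a coactivator found in paraspeckles, carried 32 clusters, 1334 reads in all, for WT replicate 1, all intronic. In WT replicate 2 it had 5 clusters with 377 reads, and in KO none. Relative to its RefSeq length of 13.3 kb this was 24.1 clusters per 10 kb in replicate 1, the highest of all members, and 3.76 in replicate 2. In replicate 2 RBM4 was highest, at 5.05 per 10 kb, so the order of these neighbours differed between the libraries. Clusters between the genes carried the readthrough name RBM14-RBM4, which the member rule leaves out, with 13 clusters in replicate 1 and 4 in replicate 2. With them the stretch held 73 clusters in replicate 1 and 24 in replicate 2 over 47.7 kb. All RBM14 clusters, and 22 of 28 RBM4 clusters in WT replicate 1, also lie inside the RefSeq interval of the readthrough gene on the same strand, so their assignment to a transcript is uncertain.

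Of the RBM4 clusters elsewhere, the next pair by depth lay at chr11:66642178-66642224 with 324 reads in replicate 1 and overlapped a cluster of 105 reads in replicate 2. A pair at chr11:66641876-66641904 had the same start and end in both, with 101 and 109 reads. Neither had a KO cluster. The paralog RBM4B, next to RBM4 on the opposite strand, carried 2 clusters, 56 reads in all, for WT replicate 1 and none in the other libraries. Both fell inside the RefSeq interval of RBM4 on the other strand.

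RBM41, a protein of the minor spliceosome, carried 26 clusters (955 reads) for WT replicate 1, then 9 (470 reads) for replicate 2, all intronic, on chromosome X. Its mean was 329.7 ± 39.9 RPM (SD, n = 2). RBM41 sites overlapped 3 times; the deepest pair had 76 reads in replicate 1 and 148 in replicate 2. RBM25, a splicing factor of the U1-associated kind, differed more. It had 16 clusters with 421 reads in replicate 1 and 4 clusters with 833 reads in replicate 2. In RPM this was 157.7 and 534.3, a mean of 346.0 ± 266.3 (SD, n = 2), and 0 of its clusters overlapped. In replicate 2 the reads lay mostly in a pair of clusters: an intronic cluster of 356 reads, and a 3′ UTR cluster of 340 reads of which 14.7% carried a T-to-C change. The intronic cluster holds ATCTT, and it is shown as the deepest RBM site after that of RBM4 in this library.
RBM25, WT replicate 2, plus strand, chr14:73101895-73101927: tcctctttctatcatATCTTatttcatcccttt

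RBM5, RBM6 and RBM10 are related splicing regulators. RBM6 had 18 clusters (589 reads) in WT replicate 1 and 3 (178 reads) in WT replicate 2, and RBM10 had 17 (378 reads) and 3 (111 reads), all intronic. RBM5, the neighbour and paralog of RBM6 on chromosome 3, had 7 clusters with 177 reads in replicate 1, of which 5 were intronic, and none in replicate 2. Per 10 kb of RefSeq length in replicate 1, RBM5 had 2.33 clusters, RBM6 had 1.31 and RBM10 had 4.09. None of the RBM6 clusters overlapped between the WT libraries, while 2 of RBM10 did. RBM5 had 1 KO cluster in the 3′ UTR with 1174 reads, of which 7.24% carried a T-to-C change; the nearest WT cluster was 72 nt away in WT replicate 1.

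RBM39, a coactivator and splicing factor, had 13 intronic clusters (295 reads) in WT replicate 1 and 2 (37 reads) in WT replicate 2. Its close relative RBM23 had 2 clusters, both in the 3′ UTR, in replicate 1 only. RBM17 and RBMX2 had 3 clusters each and RBM48, like RBM41 a minor spliceosome protein, had 1, in replicate 1 only. RBM20, the splicing regulator of titin in heart muscle, was among the few with more in replicate 2, with 2 clusters (96 reads) against 1 (12 reads). RBM22, which binds the catalytic RNA core of the spliceosome, had no WT cluster and 1 KO cluster of 36 reads.

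RBMX, a nuclear RNA-binding protein also called hnRNP G, carried 12 clusters, 392 reads in all, for WT replicate 1. None of them was intronic: 10 were annotated as processed transcript, 1 as 3′ UTR and 1 at the stop codon. Those 10 lay outside the RefSeq interval of RBMX, at least 5.84 kb downstream of its end on the same strand, and held 367 of the 392 reads. The assignment of these clusters to RBMX is the authors', and the transcript they come from is uncertain. RBMXL1, a retrogene relative of RBMX, had 6 intronic clusters in replicate 1, and all 6 lie inside KYAT3 on the same strand. The 7 RBM12 clusters of replicate 1 likewise all lie inside CPNE1 on the same strand. For these genes the host cannot be told apart from the member.

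In the group of RNA surveillance, export and turnover, 6 of 8 genes had a cluster and 4 had clusters in both WT libraries. RBM33, which binds GC-rich RNA and acts in mRNA export, had the most clusters of all members in WT replicate 1. It had 39 clusters with 1072 reads there and 12 with 1029 reads in replicate 2, all intronic, a mean of 530.9 ± 182.7 RPM (SD, n = 2). RBM33 sites overlapped 3 times. The deepest RBM33 cluster of replicate 2, at chr7:155695282-155695317, had 302 reads from only 4 distinct read sequences. It had no overlapping cluster in replicate 1. KO had 2 RBM33 clusters: 1 intronic with 175 reads and 1 in the 3′ UTR with 262 reads. Neither overlapped a WT cluster; the intronic KO cluster lay 104 nt from the nearest WT replicate 1 cluster.

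RBM26, a protein of the nuclear exosome targeting pathway, carried 27 clusters (1435 reads) for WT replicate 1, then 5 (259 reads) for replicate 2. In RPM this was 537.7 and 166.1, a mean of 351.9 ± 262.7 (SD, n = 2). Its deepest cluster was the same interval in both WT libraries, with 346 reads in replicate 1 and 160 in replicate 2, and T-to-C reads of 74.6% and 93.1%. Its paralog RBM27 had no cluster in any library. RBM7, a subunit of the nuclear exosome targeting complex, had 1 cluster in each WT library (23 and 51 reads), as did RBM47 (14 and 8 reads); neither pair overlapped. RBM8A, a core protein of the exon junction complex, and RBM38, a p53 target that affects mRNA stability, had 1 cluster each in replicate 2 only, with 16 and 123 reads.

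All 3 ribosome and nucleolus genes had clusters. RBM28, a nucleolar protein of large ribosomal subunit assembly, stood out by location. Of its 25 clusters in WT replicate 1, 12 lay in the 3′ UTR and 13 in introns; of its 7 in WT replicate 2, 2 lay in the 3′ UTR. By reads the 3′ UTR held 50.7% of RBM28 reads in replicate 1 (402 of 793) and 50.8% in replicate 2 (169 of 333). The 3′ UTR clusters had 7 to 82 reads in replicate 1 (median 32.5, against 21 over all RBM clusters) and 60 to 109 in replicate 2, where the RBM median was 46. The deepest RBM28 cluster of each WT library was among them, and 1 pair overlapped. The 12 clusters in replicate 1 spread over 6.96 kb. RBM28 provided 12 of the 18 RBM 3′ UTR clusters of replicate 1.

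RBM34, a nucleolar protein, had 10 clusters (588 reads) in WT replicate 1 and 6 (272 reads) in WT replicate 2, a mean of 197.4 ± 32.4 RPM (SD, n = 2). Of its 6 replicate 2 clusters 4 overlapped replicate 1, the largest part among members with at least 5 clusters there. RBM19, a factor of ribosome assembly, had 7 intronic clusters of up to 21 reads in replicate 1 only.

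The RBMS genes encode proteins that bind single-stranded DNA and RNA. RBMS1 had 33 clusters (944 reads) in WT replicate 1 and 16 (759 reads) in WT replicate 2, the most of any member in replicate 2. RBMS3 had 14 clusters (214 reads) and 9 (622 reads), or 80.2 and 399.0 RPM, a mean of 239.6 ± 225.4 (SD, n = 2). All of these were intronic. RBMS2 had 3 clusters in replicate 1 only. RBMS3 is the longest member, at 729.3 kb, and per 10 kb it had 0.192 clusters in replicate 1 and 0.123 in replicate 2, against 1.49 and 0.722 for RBMS1. The order RBMS1 above RBMS3 in clusters held in both libraries.

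RBM3, the cold-induced protein, had 5 clusters (171 reads) in WT replicate 1 and 2 (114 reads) in WT replicate 2, or 68.6 ± 6.40 RPM (SD, n = 2). Most came from an intronic site found in both, with 104 and 84 reads. RBM15, a subunit of the RNA m6A methylation complex, had 1 intronic cluster of 12 reads in replicate 1, and its paralog RBM15B had none. The genes to which no role was given were RBM12, RBM12B, RBM18 and RBM45, with 11 clusters in replicate 1 and 1 in replicate 2.

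By annotated class the members resembled other genes in their intron and 3′ UTR shares. Processed transcripts held 11 of 364 RBM clusters in WT replicate 1 (3.02%, against 0.973% of all gene clusters). Of these 11, 10 were the RBMX clusters of uncertain transcript. In WT replicate 2 the class held 0 of 105, with a 95% Wilson interval up to 3.53% that holds the 0.977% of all genes. The remaining classes held 4 of 364 and 0 of 105 RBM clusters. Their intervals, up to 2.79% and 3.53%, lay below the 3.93% and 4.15% of all gene clusters. Introns held 331 of 364 RBM clusters of WT replicate 1 (90.9%, 95% Wilson interval 87.5 to 93.5%). They held 100 of 105 of WT replicate 2 (95.2%, 89.3 to 97.9%), for a mean of 93.1 ± 3.04% (SD, n = 2). The same shares over all gene clusters were 91.9% and 90.3%. The 3′ UTR held 4.95% of RBM clusters in replicate 1 and 4.76% in replicate 2. hnRNP genes were at 85.2% and 76.7% intronic and 12.4% and 13.3% 3′ UTR, and SRSF genes at 84.4% and 92.9% intronic. In WT replicate 1 the RBM intron interval did not reach the hnRNP share of 85.2%, whose own interval was 79.1 to 89.8%, so these intervals overlap. In WT replicate 2 they did not, at 89.3 to 97.9% for RBM genes and 59.1 to 88.2% for the 30 hnRNP clusters; no test of the difference was made. Relative to the summed RefSeq length of their protein-coding genes, RBM genes had 12.4 clusters per 100 kb in replicate 1 and 3.58 in replicate 2. hnRNP genes had 37.5 and 6.57, SRSF genes 24.5 and 7.61, and all protein-coding genes 5.93 and 1.85. RBM genes lay between all genes and both of these families in both libraries.

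Site by site, 28 of the 105 RBM clusters of WT replicate 2 overlapped a WT replicate 1 cluster (1 nt or more, same strand). That is 26.7% (95% Wilson interval 19.1 to 35.8%), against 20.2% of all gene clusters, which the interval includes. With WT replicate 1 limited to its deepest clusters, as many as replicate 2 has, the RBM share was 17.1% (18 of 105; 11.1 to 25.5%) and that of all genes 12.2%. The overlaps lay in 11 genes and 27 of the 28 were intronic in both libraries. In 9 pairs both ends were the same, and in 16 the 3′ end was. The overlapping clusters had a median of 79.5 reads in replicate 2 and the others 39. The share was 16.1% (5 of 31) at 5 to 19 reads, 27.5% (14 of 51) at 20 to 99 and 39.1% (9 of 23) at 100 or more. For all genes it was 12.6%, 21.3% and 31.0%, and each RBM interval held the value of all genes. RBM clusters of replicate 2 without an overlap lay a median of 420 nt from the nearest replicate 1 cluster of their gene, and 39.2% (29 of 74) lay within 200 nt. For all genes the median was 861 nt and 28.5% lay within 200 nt. RBM genes also held more replicate 1 clusters per 100 kb, 12.4 against 5.93, and the distances were not adjusted for this.

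**Figure D4:**
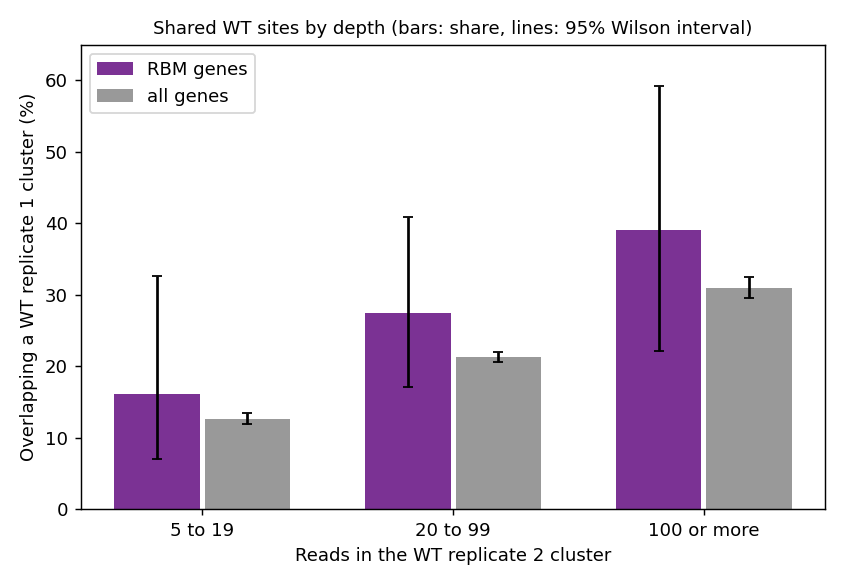
Share of WT replicate 2 clusters that overlap a WT replicate 1 cluster (y axis, percent) by the reads in the cluster (x axis), for RBM genes and all genes; lines are 95% Wilson intervals. The RBM share went from 16.1% at 5 to 19 reads to 39.1% at 100 or more, with intervals that include the values of all genes.

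In base composition the intronic RBM clusters were 38.8% T and 12.2% G in WT replicate 1 and 42.5% T and 10.8% G in WT replicate 2. All intronic clusters were 40.4% T and 9.99% G in replicate 1 and 42.1% and 9.78% in replicate 2. Within the group RBM14 was set apart in replicate 1, at 32.3% T and 20.9% G over 32 clusters, and RBM10 had 32.0% T over 17. In replicate 2 RBM14 had 36.6% T and 15.9% G over 5 clusters, and RBM10 had 37.6% T over 3. There RBM6, with 36.7% T and 22.4% G over 3 clusters, held more G than RBM14. RBMS3 was at the other end, with 47.2% T and 5.42% G over 14 clusters in replicate 1, but 39.2% and 9.89% over 9 in replicate 2. The letters ATCTT, searched on the transcript strand, occurred in 48 of 331 intronic RBM clusters of replicate 1 (14.5%, 95% Wilson interval 11.1 to 18.7%) and 18 of 100 in replicate 2 (interval 11.7 to 26.7%). Over all intronic clusters of nearly the same median length the shares were 14.8% and 15.9%. TTCTT, which can overlap ATCTT only at its ends, occurred in 26.3% and 31.0% of RBM clusters and in 30.6% and 32.0% of all. For neither word did RBM introns and all introns differ beyond these intervals. By gene, ATCTT was in 8 of 14 RBMS3 clusters in replicate 1 (57.1%, 32.6 to 78.6%) and in 2 of 9 in replicate 2. It was in 9 of 26 RBM41 clusters in replicate 1 (34.6%, 19.4 to 53.8%) and in 1 of 9 in replicate 2. RBM10 had it in 0 of 17 and 0 of 3 clusters, with intervals up to 18.4% and 56.1% that hold the shares of all introns. These genes were picked for their high or low values.

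T-to-C conversion in RBM clusters was the same in both WT libraries, at 7.49% of T positions each (mean 7.49 ± 0.00423%, SD, n = 2). All gene clusters were at 7.94% and 7.53%. Without the deepest RBM4 site, a setting chosen after seeing the data, the RBM values were 8.06% and 7.85%. Clusters in which under 50% of reads carried a change numbered 14 of 364 (3.85%) in replicate 1 and 4 of 105 (3.81%) in replicate 2, close to the 4.19% and 3.88% of all gene clusters.

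**Figure D5:**
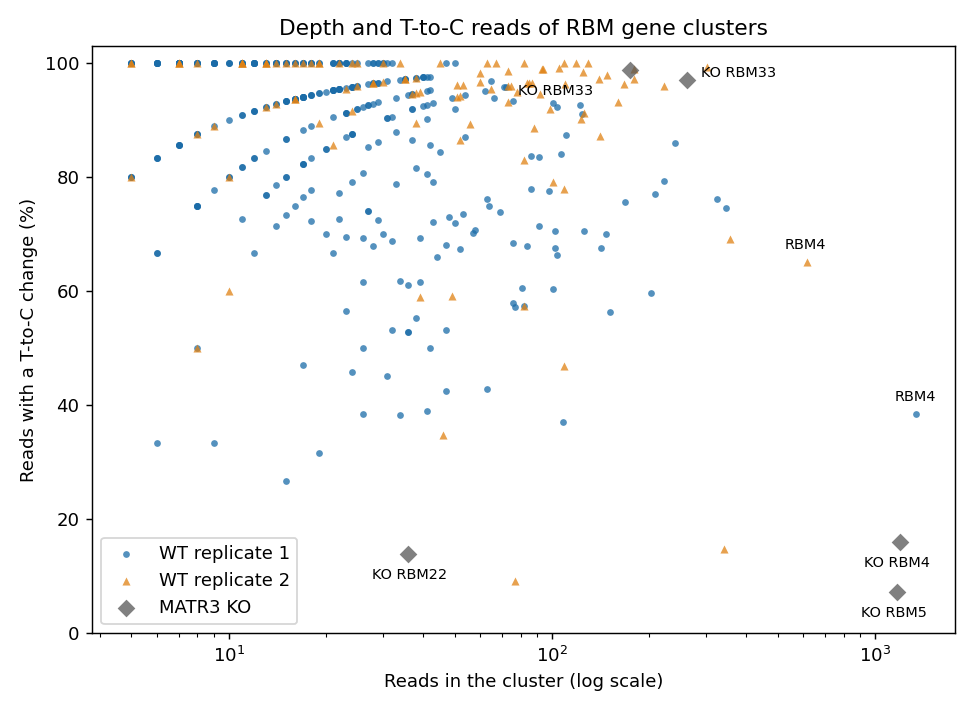
Percent of reads carrying a T-to-C change (y axis) against reads in the cluster (x axis, log scale) for all RBM clusters, with a marker per library. Most WT clusters lay above 50%, while the KO clusters of RBM4, RBM5 and RBM22 lay at 16.0%, 7.24% and 13.9% and those of RBM33 at 98.9% and 96.9%.

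KO clusters were found in 4 of the 35 members (11.4%, 95% Wilson interval 4.54 to 26.0%), where 6.35% of all genes with a cluster in any library had one. The 5 clusters fell into distinct kinds. Those of RBM4, RBM5 and RBM22 had few converted reads, at 16.0%, 7.24% and 13.9%; among all KO gene clusters 6.84% (46 of 673) had under 50%. The RBM33 clusters had 98.9% and 96.9%, from 3 and 8 distinct read sequences. Only the RBM4 cluster overlapped WT clusters, with 1 in each WT library. The other 4 did not overlap any, and 3 of them are shown for comparison with the WT sites above.
RBM5, 3′ UTR, plus strand, chr3:50118860-50118889: ccttgtgtatatttgtatattacacatttg
RBM22, 3′ UTR, minus strand, chr5:150691185-150691207: cttttcctcatttattcctaaag
RBM33, intron, plus strand, chr7:155692724-155692753: caagtagagtaaaATCTTatactcttcact

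Genotypes were compared by values alone: relabelling 3 libraries exactly allows no p below 0.333, so no test was made.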

How the data were processed

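Cluster tables of 3 PAR-CLIP libraries (2 WT, 1 MATR3 KO) were used. The authors deposited raw counts for each cluster (reads, converted positions, T events, distinct sequences), as its header names them. Their deposited fraction values say what part of the reads carried a T-to-C change or, by the header, ended in G. Cutadapt 1.8.3, Bowtie 1.1.2, hg38 and GRCh38.p5 are named in the submitters' processing notes; the cluster caller is not given in the sources used here. Clusters were called per library, with at least 5 reads and 2 converted positions in these tables. The libraries held 87230, 27155 and 842 clusters with 2668797, 1558995 and 224142 reads; sequencing depth itself is not known.

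Each cluster kept the gene the authors gave it. All 35 member names matched RefSeq (GRCh38.p14), which was used for lengths and neighbours; where RefSeq gave a strand (32 members), the clusters lay on it. Shares carry 95% Wilson intervals, and overlaps need 1 nt on the same strand. The overlap search was tested on simulated data. Python 3.11.15, numpy 2.4.6, pandas 2.3.3, scipy 1.17.1 and statsmodels 0.14.6 were used.

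The members, role groups and words were chosen with earlier results of these data known. Described in detail are the 12 members with the highest geometric mean of WT cluster numbers, those with a KO cluster, those with at least 5 clusters in 1 WT library and none in the other, those mostly outside introns, paralogs, the 8 deepest overlapping WT pairs (at most 2 per gene) and KO clusters. The deepest WT replicate 2 clusters of RBM33 and RBM25, and the further RBM4 pairs, were named after their values were seen.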

Additional observations from a re-analysis of the deposited data

How the results depend on the processing

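Of 66 values recomputed under an alternative, 42 stayed within the spread between the WT libraries, the counting interval or 1.5 times the count. For rho no spread was available, and any change counted as moved. With 2 WT libraries, leaving 1 out cannot move a mean beyond their SD, so for means those alternatives stayed within it by construction. The number of genes with clusters in both WT libraries was 20 without WT replicate 1 and 31 without WT replicate 2, since 1 library then decides it; the other alternatives gave 12 to 18. Leaving out a WT library gave 0.420 to 0.456% of gene clusters, 0.513 to 0.530% of reads and 90.9 to 95.2% intronic. With at least 3 converted positions the shares of clusters and reads were 0.528% and 0.664%, conversion was 6.83%, rho was 0.596, ATCTT was in 21.3% and KO had 3 clusters. HAVANA annotation alone gave 0.499% of clusters, 0.608% of reads and a rho of 0.668. Including hyphenated names gave 0.546% of reads, 7.57% conversion and a rho of 0.670. Limiting replicate 1 to as many clusters as replicate 2 gave 0.537% of reads, 7.15% conversion, a rho of 0.675 and an overlap of 17.1%. At least 10 reads gave 7.41% conversion and a rho of 0.680; reads in place of clusters gave a rho of 0.610; the median over clusters gave 8.32% conversion; and TTCTT was in 28.6% of clusters. Without the RBM4 site that KO also holds (chosen after seeing the data) the read share was 0.473% and conversion 7.95%. Apart from fewer clusters or libraries entering by construction, the cause was not tested. No paired analysis was possible because the KO library carries no replicate number and no test between groups was made. With 105 RBM clusters in WT replicate 2 and 5 in KO, the intervals of shares are wide.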

Other observations

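RNase T1 cuts after G, and the authors deposited a share of reads that end in G. Among the clusters shown whose transcript-strand sequence ends in G, it was 47.2 to 100% on the plus strand. On the minus strand (RBM26, RBM41 and RBM22) it was 0 to 1.25%. The strand on which the share was taken is not given, and 18 of the 35 members lie on the plus strand. The values below are thus as deposited and are not read as RNase T1 ends. The deposited share was at least 50% in 145 of 364 RBM clusters (WT replicate 1) and 57 of 105 (WT replicate 2). Its mean was 37.7% and 53.6%, beside 39.2% and 51.7% over all gene clusters. Reads per distinct read sequence in RBM clusters were 7.67 for WT replicate 1 and 18.4 for WT replicate 2, beside 7.57 and 17.9 over all gene clusters. RBM26-AS1, an antisense name left out by the member rule, had 1 cluster of 6 reads in WT replicate 1.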
